A study of Mus musculus with 17 samples.

Results

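Ppfibp1, Mapt, Cttn and Itih5, which encode scaffold proteins of the cell cortex, the cytoskeleton and the pericellular matrix, were followed with the paralogs Ppfibp2 and Hcls1 through 17 RNA sequencing libraries of mouse fetal liver cells (FLCs). They are 6 of the 47069 genes listed. The first 4 were picked because their counts were low with miR-125b, and 2 of them, Ppfibp1 and Mapt, also because they were low with a hairpin against Arid3a. The paralogs were added by relation. The values of the 4 picked genes in the comparisons that picked them are therefore a description and carry no test. All 6 genes passed the filter on low counts.

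All groups were FLCs of E12.5-13.5 mouse embryos whose ROSA26 locus carries Cas9 and EGFP under the CAG promoter. The series concerns miR-125b, its target Arid3a and a shortened GATA1, a transcription factor of red cells and megakaryocytes. The Gata1s groups carried sgGata1, a guide RNA that leaves cells with that shortened protein. After 48 h of doxycycline at 1 µg/mL they held a second transgene named LUC (3 libraries) or Arid3a (3). After 10 days at the same dose they held sh-ctrl (3), shArid3a (2, numbered 1 and 3) or miR-125b (3). The WT group (3) carried sgLuc and shLuc, a guide and a hairpin against luciferase, and no doxycycline is recorded for it. The labels name neither a clone nor a sort, and they do not say whether replicates were separate cultures or animals, so p-values measure the spread between these libraries, which may be technical.

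Liprins are scaffolds that bind one another through their C-terminal domains. Liprin-β1 (Ppfibp1) and liprin-β2 (Ppfibp2) belong to the β branch. With liprin-α, ELKS, LL5, KANK and KIF21 proteins, liprin-β1 forms cortical patches that hold microtubule plus ends near adhesions. Tau (Mapt) binds along microtubules and is best known from axons. Cortactin (Cttn) and its haematopoietic relative HS1 (Hcls1) bind the Arp2/3 complex and stabilise branched actin, and both are phosphorylated by Src-family and Syk kinases. Itih5 encodes a heavy chain of the inter-alpha-trypsin inhibitor family, secreted proteins that bind hyaluronan. Megakaryocytes, the platelet precursors made in fetal liver, depend on both filament systems when they spread and extend proplatelets.

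Because the microRNA acts by pairing with 3′ UTRs, its sequence is shown with matches found in the picked genes. The mature mmu-miR-125b-5p is taken from RefSeq (GRCm38.p6), where Mir125b-1 (chr9:41581940-41581961, plus strand) and Mir125b-2 (chr16:77646279-77646300, plus strand) give the same 22 bases. Capitals mark the seed, bases 2 to 8.
miR-125b-5p: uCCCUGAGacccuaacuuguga
Matches to the seed were searched on the sense strand of the longest annotated 3′ UTR (GENCODE M21, GRCm38), as CTCAGGGA (8mer), CTCAGGG (7mer-m8), TCAGGGA (7mer-A1) or TCAGGG (6mer), each site being counted once under its longest form. Each window below has 30 bases of the sense strand, and capitals mark the match. The Mapt window lies at chr11:104328612-104328641, the Itih5 window at chr2:10255338-10255367, and the Ppfibp1 window at chr6:147031520-147031549, all on the plus strand. The Cttn window lies at chr7:144436657-144436686 on the minus strand. The first Arid3a 8mer, at chr10:79952876-79952905 on the plus strand, is shown because Arid3a is the gene the hairpin targets.
Mapt, 7mer-A1: tcctaggggctTCAGGGAcagtggcagcaa
Itih5, 7mer-A1: gttaataataaTCAGGGAggctggttggta
Ppfibp1, 6mer: ctacttttcatTCAGGGctactctaaatga
Cttn, 6mer: atgtagccactTCAGGGgttgcgcttctca
Arid3a, 8mer: gcctcctgtgcCTCAGGGAtgacagtgctg

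None of the 6 genes had an 8mer or a 7mer-m8 in that UTR. Mapt had 2 7mer-A1 matches in 3903 bases, and Itih5 had 1 7mer-A1 and 2 6mers in 4946 bases. Ppfibp1 (1625 bases) and Cttn (1232 bases) had 1 6mer each. Ppfibp2 (986 bases) and Hcls1 (463 bases) had no match of any form. Arid3a, by contrast, had 2 8mers, 4 7mer-m8, 1 7mer-A1 and 1 6mer in 3082 bases. Among the 11505 tested genes with an annotated 3′ UTR (median length 1133 bases), 5.53% had an 8mer, 15.7% an 8mer or 7mer-m8, and 22.8% a 7mer or 8mer of any form. These matches are a description of letters in annotated UTRs and show no pairing.

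Levels below are in CPM, read counts relative to the size of the library, scaled by TMM within each of the 3 count tables, with the standard deviation (SD) between libraries. The tables hold LUC with Arid3a (31339238 to 38678649 counts per library), the hairpin and microRNA groups with sh-ctrl (31992089 to 40859301) and WT (16362439 to 19212193). Levels set side by side across tables carry no test, because table, doxycycline and transgenes change together. Arid3a itself checked the labels. It stood at 52.9 ± 6.70 CPM in sh-ctrl (n = 3), 19.7 ± 1.03 in shArid3a (n = 2) and 8.97 ± 1.60 with miR-125b (n = 3). These falls had edgeR quasi-likelihood, Benjamini-Hochberg adjusted p of 0.0368 and 0.000282. The hairpin's call held in 7 of 12 alternative fits. It was lost without ribosomal RNA-like genes, without sh-ctrl replicate 2 or 3, and without either shArid3a library. Log2 differences over the 12 fits lay between -1.62 and -1.36. Libraries with the Arid3a label had 70.9 ± 11.3 CPM against 67.2 ± 3.09 in LUC (n = 3 each), a log2 difference of 0.08 ± 0.12 (SE, edgeR adjusted p = 0.737). Counts at the mouse gene thus did not show the rise that the label names. Whether the sequence of the transgene would be counted at that gene was not tested.

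Marker genes placed the cells. The 9 megakaryocyte markers summed to between 2448 and 4439 CPM in the Gata1s libraries and to 1036 to 1290 in WT. The 8 myeloid markers summed to 12290 to 14330 CPM in WT and to at most 166 in any Gata1s library. Hepatoblast markers summed to at most 4.65 CPM anywhere, with Ttr and Serpina1a at 0 in 5 of the 6 groups. Neuronal markers summed to between 0.409 and 7.10 CPM, highest in WT. Of these markers, Snap25 and Rbfox3 were at 0 in every group, while Tubb3 means ran from 0.637 CPM with miR-125b to 5.70 in WT. These differences in marker sums run alongside every level compared with WT, and their part in those levels was not tested. In bulk RNA, fewer cells of a type and less RNA per cell cannot be told apart.

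**Figure D1:**
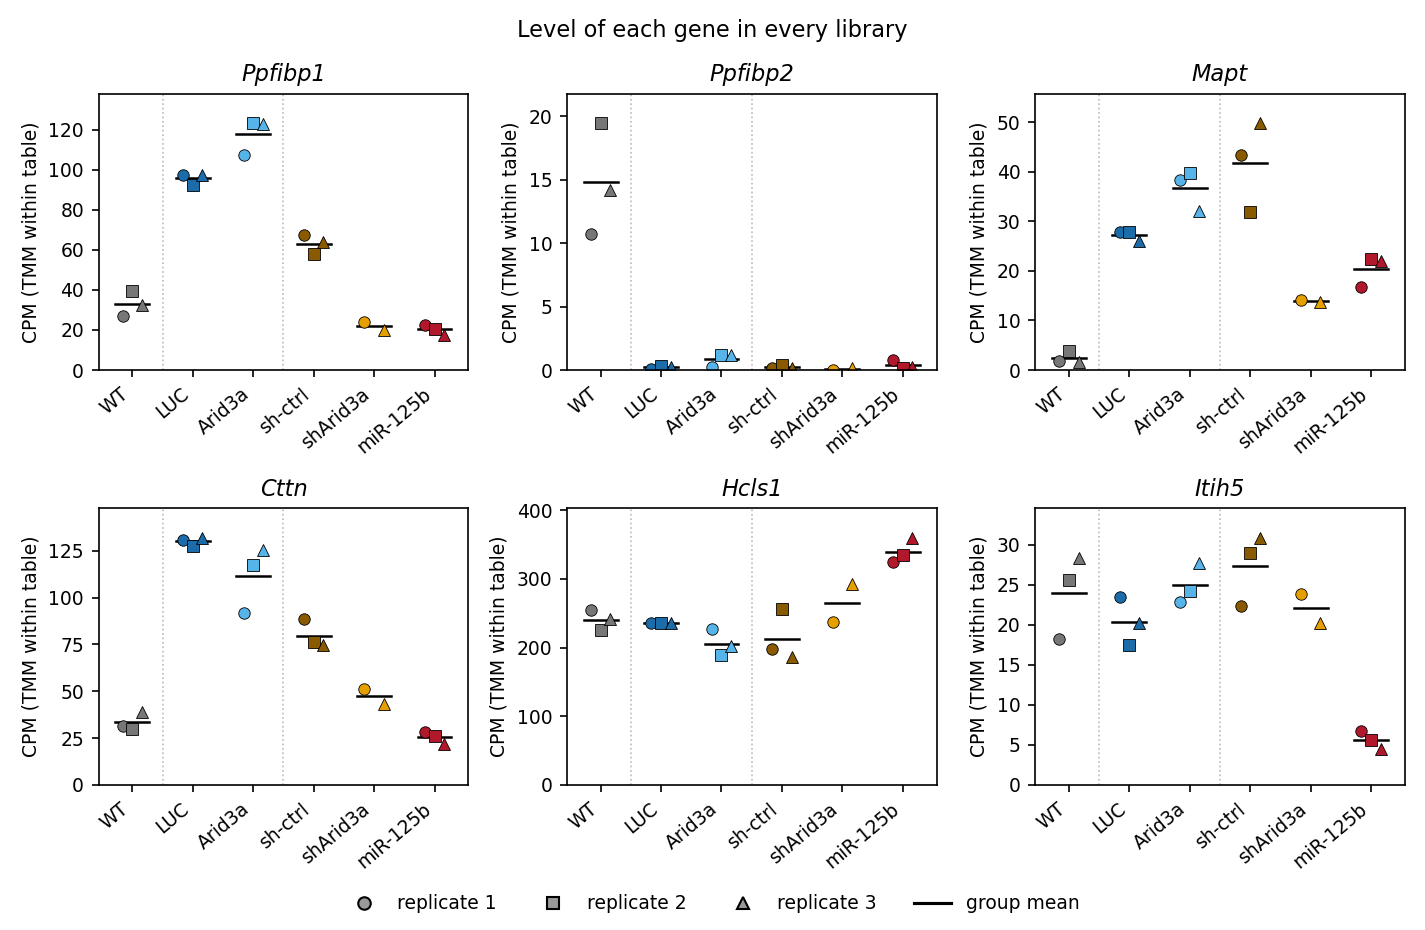
CPM of the 6 genes (y axes, linear, TMM within each table) in the 17 libraries, by group; symbols are replicate numbers, black bars group means, and dotted lines separate the 3 tables. Ppfibp1, Cttn and Itih5 are lowest with miR-125b, Mapt is lowest in WT, Ppfibp2 is above 2 CPM in WT alone, and Hcls1 is highest with miR-125b.

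Ppfibp1 (ENSMUSG00000016487, chr6:146888487-147032025, plus strand) encodes liprin-β1. Its CPM was 67.2, 57.8 and 64.1 in the 3 sh-ctrl libraries. It was 24.1 and 20.0 in the 2 shArid3a libraries and 22.5, 20.7 and 17.5 in the 3 miR-125b libraries. Every library of both treated groups lay below every control, and the treated groups overlapped each other. The group means left were 35% of sh-ctrl with shArid3a and 32.2% with miR-125b. The fitted log2 differences were -1.51 ± 0.17 (SE) and -1.64 ± 0.15, and between miR-125b and shArid3a -0.12 ± 0.17. In the other tables Ppfibp1 was at 27.2, 39.5 and 32.6 CPM in WT and at 97.3, 92.4 and 97.4 in LUC. Control Gata1s cells of both tables thus had 1.91 (sh-ctrl) and 2.89 times (LUC) the WT mean, and the hairpin and microRNA groups lay below the WT libraries. With all 17 libraries scaled together, both treated groups overlapped WT. The lowest WT library then stood at 24.7 CPM, and the highest shArid3a and miR-125b libraries at 26.5 and 25.2.

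The paralog Ppfibp2 (ENSMUSG00000036528, chr7:107595207-107748583, plus strand), liprin-β2, was counted mainly in WT. It had 175, 363 and 272 counts in the WT libraries, or 10.7, 19.4 and 14.2 CPM. The deeper Gata1s libraries held between 0 and 42 counts each, and no group mean among them exceeded 0.856 CPM. The WT mean of 14.8 ± 4.40 CPM was 70.7 times that of LUC and 63.2 times that of sh-ctrl. Per kilobase of gene model, Ppfibp1 made up 65.8% to 70.6% of the summed level of the pair in WT and 96.5% to 100% in the Gata1s libraries. In the knockdown table its counts were 7, 13 and 5 in sh-ctrl, 0 and 5 in shArid3a, and 24, 7 and 10 with miR-125b. At this depth no difference was detectable with shArid3a (log2 -1.64 ± 1.23, edgeR adjusted p = 0.422) or with miR-125b (0.77 ± 0.95, adjusted p = 0.574), and the ranges overlapped. Lower Ppfibp1 was thus not accompanied by a detectable rise in Ppfibp2, although the 95% interval with miR-125b, -1.32 to 2.87, is wide.

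Mapt (ENSMUSG00000018411, chr11:104231390-104332090, plus strand) encodes tau. It had 43.4, 31.9 and 49.8 CPM in sh-ctrl, 14.1 and 13.7 in shArid3a, and 16.7, 22.4 and 22.1 with miR-125b. The 3 groups did not overlap, and shArid3a was the lowest of them. That order differs from Ppfibp1: 33.3% of the sh-ctrl mean was left with shArid3a and 48.9% with miR-125b. The log2 differences from sh-ctrl were -1.59 ± 0.23 and -1.03 ± 0.19, and miR-125b lay 0.55 ± 0.22 above shArid3a. WT libraries had 1.90, 3.86 and 1.61 CPM, so sh-ctrl stood 17 times and LUC 11.1 times above the WT mean. Even the lowest treated library, at 13.7 CPM, lay above every WT library.

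Cttn (ENSMUSG00000031078, chr7:144435733-144471009, minus strand) encodes cortactin. Its 3 sh-ctrl libraries had 88.4, 76.1 and 74.7 CPM, the shArid3a libraries 51.4 and 43.1, and the miR-125b libraries 28.1, 26.2 and 21.7. The 3 groups form 3 steps with no overlap. The mean left was 59.3% with shArid3a and 31.8% with miR-125b, with log2 differences of -0.75 ± 0.16 and -1.66 ± 0.15. Between the treated groups, miR-125b lay at -0.90 ± 0.16 relative to shArid3a. LUC had 131, 127 and 132 CPM and WT 31.6, 29.7 and 39.0, a ratio of means of 3.89. The miR-125b libraries lay below the WT range on this scaling, and some of these neighbouring groups overlapped under other scalings.

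Its paralog Hcls1 (ENSMUSG00000022831, chr16:36934983-36963212, plus strand), HS1, moved the other way with miR-125b. It had 198, 256 and 186 CPM in sh-ctrl and 325, 335 and 360 with miR-125b, with no overlap, as was so for 22% of tested genes. The rise was 0.67 ± 0.15 on the log2 scale (SE, edgeR adjusted p = 0.0153), at 159% of the control mean. In that comparison 12.1% of tested genes were called higher. The call was lost without sh-ctrl replicate 3 (0.57, adjusted p = 0.0696) and held in 12 of 13 alternative fits, whose edgeR or DESeq2 adjusted p ranged from 0.00103 to 0.0696. With shArid3a the libraries stood at 237 and 292 CPM, overlapping sh-ctrl. The log2 difference there was 0.31 ± 0.17 (edgeR adjusted p = 0.270), with a 95% interval from -0.06 to 0.69. Between miR-125b and shArid3a it was 0.36 ± 0.17 (adjusted p = 0.369). In WT Hcls1 had 255, 226 and 241 CPM and in LUC 236 in each library. HS1 transcript thus differed little between WT and the Gata1s controls, with ratios of sh-ctrl and LUC to WT of 0.885 and 0.979, where the same ratios for Cttn were 2.38 and 3.89. With all 17 libraries scaled together the log2 ratio of sh-ctrl to WT for Hcls1 turned from -0.18 to 0.12.

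Set side by side per kilobase of gene model, the paralogs changed rank in no library: Hcls1 was above Cttn in all 17. Cttn stood at 31 CPM per kb in LUC, 19.0 in sh-ctrl, 11.3 in shArid3a, 6.04 with miR-125b and 7.98 in WT. Hcls1 stood at 93.4, 84.4, 105, 135 and 95.4 in the same order. The share of Cttn in the summed level of the pair was 24.6% to 25.1% in LUC and 15.2% to 21.2% in sh-ctrl. It was 8.16% and 11.6% in the shArid3a libraries, 3.51% to 4.94% with miR-125b and 6.94% to 8.86% in WT. The summed level per kb was 103 ± 14.5 in sh-ctrl, 141 ± 6.27 with miR-125b and 103 ± 6.18 in WT (SD, n = 3 each). Transcripts of the paralogs share no run of 31 bases with each other, and the same holds for the liprin-β pair.

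**Figure D2:**
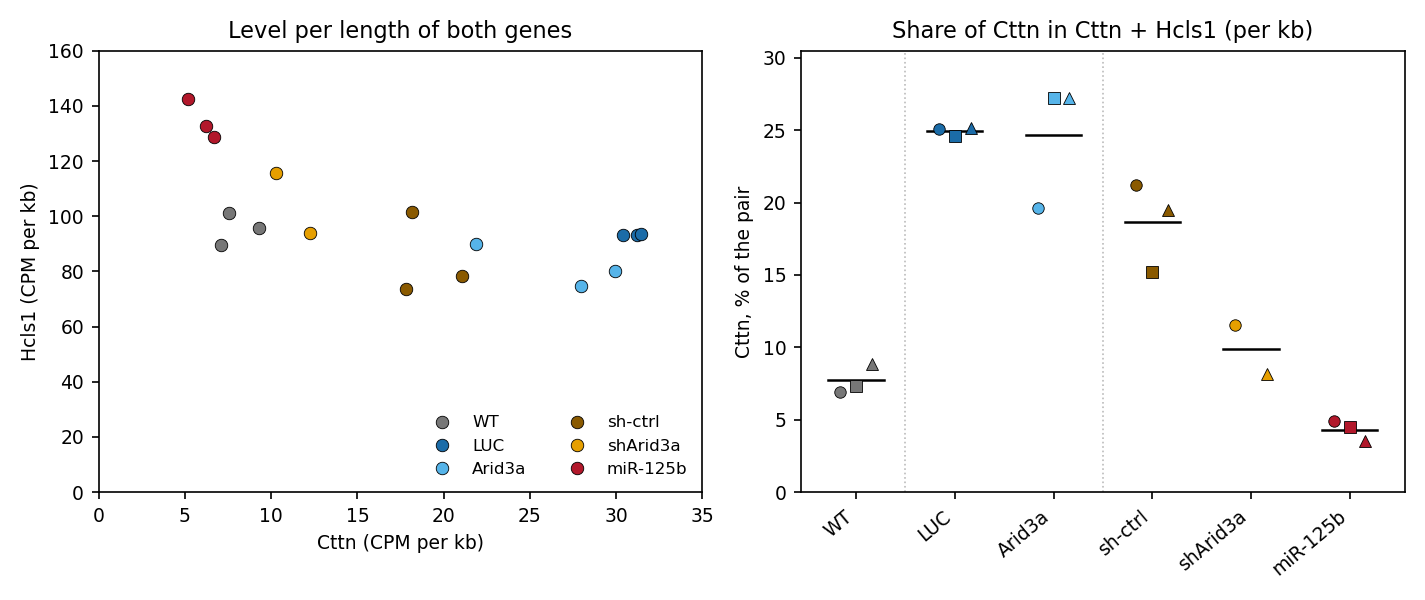
Left, Hcls1 against Cttn in CPM per kb of gene model, 1 point per library, coloured by group. Right, the share of Cttn in the sum of both (percent, per kb) by group, with symbols for replicates 1 (circle), 2 (square) and 3 (triangle) and bars for group means. LUC libraries sit near 25% and miR-125b libraries under 5%, with WT and shArid3a between them.

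Itih5 (ENSMUSG00000025780, chr2:10153571-10256529, plus strand) encodes a secreted heavy chain and was lowest with the microRNA. It had 22.4, 29.0 and 30.8 CPM in sh-ctrl, 23.9 and 20.3 in shArid3a, and 6.79, 5.64 and 4.55 with miR-125b. The shArid3a libraries overlapped the controls, while every miR-125b library lay far below both groups. The mean left was 80.6% with shArid3a and 20.6% with miR-125b. Relative to sh-ctrl the log2 differences were -0.31 ± 0.23 and -2.28 ± 0.22, and relative to shArid3a miR-125b stood at -1.97 ± 0.23. WT libraries had 18.2, 25.6 and 28.3 CPM and LUC 23.5, 17.5 and 20.3. The 5 groups without the microRNA all overlapped their neighbours in the order of means, which ran from 20.4 (LUC) to 27.4 CPM (sh-ctrl).

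**Figure D3:**
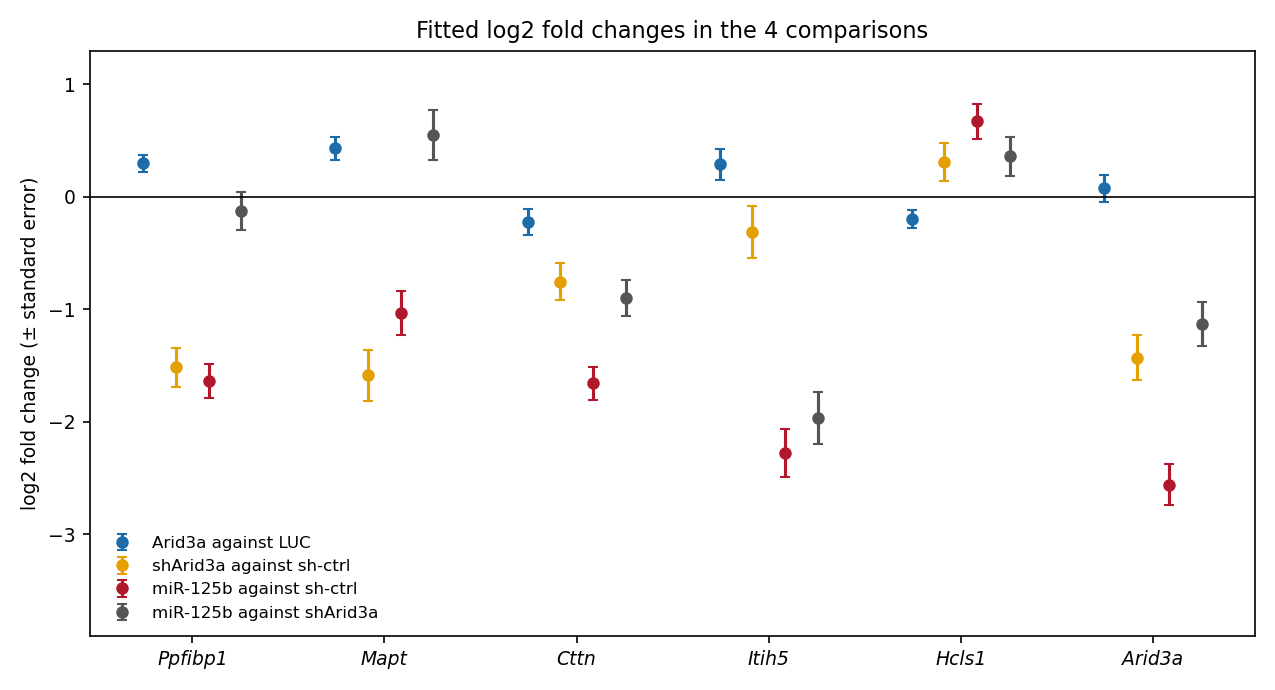
Fitted log2 fold changes (y axis) of the 4 picked genes, Hcls1 and Arid3a in the 4 comparisons named in the key; points are estimates and bars standard errors. Ppfibp1 lies at -1.51 with shArid3a and -1.64 with miR-125b, Itih5 is low in both comparisons that hold miR-125b, and Hcls1 lies above 0 wherever miR-125b is compared.

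Both treated groups were set against the same 3 sh-ctrl libraries, so their differences from control are not independent of each other. With shArid3a, 3 of the 4 picked genes (Ppfibp1, Mapt and Cttn) lay below every control library, beside 22.2% of all tested genes. With miR-125b all 4 did, beside 23% of tested genes. Between miR-125b and shArid3a, Cttn and Itih5 lay lower and Mapt higher with no overlap, where 15.4% of tested genes were lower and 14.4% higher in that way. Over the whole table, adjusted p under 0.05 was reached by 0.0857% of genes with shArid3a, by 24.4% with miR-125b (12.2% lower) and by 1.35% between the treated groups. These shares are the background of the picked genes, and nothing is read from their own count, since these libraries chose them.

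The libraries labelled Arid3a and their LUC controls took no part in the choice. None of the 6 genes was called there by edgeR, nor was any other of 13495 genes, a background of 0%. At an unadjusted p under 0.05 edgeR had 2885 genes, and DESeq2 called 1186. Ppfibp1 had 107, 123 and 123 CPM in the libraries labelled Arid3a, all above LUC (0.30 ± 0.08, edgeR adjusted p = 0.0995). Mapt had 38.3, 39.8 and 32.1, also above its 27.9, 27.9 and 25.9 in LUC (0.43 ± 0.10, adjusted p = 0.0971). Cttn, at 91.8, 117 and 126, and Hcls1, at 227, 189 and 202, lay below LUC (-0.22 ± 0.12, adjusted p = 0.316, and -0.20 ± 0.08, adjusted p = 0.214). Groups did not overlap for these 4 of the 6 genes, where 27.6% of all tested genes did not overlap.

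Itih5 overlapped LUC, with 22.9, 24.2 and 27.8 CPM against 23.5, 17.5 and 20.3 (0.29 ± 0.14, edgeR adjusted p = 0.278). Ppfibp2 had 9, 39 and 42 counts against 2, 13 and 7 (2.0 ± 0.77, adjusted p = 0.197). DESeq2 on all 6 libraries called Ppfibp1 (0.31, adjusted p = 0.0260) and Mapt (0.44, adjusted p = 0.0143). Without replicate 1 of the Arid3a label edgeR called 3198 genes, among them Ppfibp1 (0.37, adjusted p = 0.00319), Mapt (0.41, 0.0206) and Hcls1 (-0.26, 0.0131). Ppfibp2 passed that fit too (2.45, 0.0222), but it met the low-count filter mainly through the libraries labelled Arid3a. No rise is therefore read from Ppfibp2. Cttn (-0.09, edgeR adjusted p = 0.353) and Itih5 (0.36, 0.0818) were not called without that replicate either. Over the 12 alternative fits the adjusted p of edgeR or DESeq2 ranged from 0.00319 to 0.384 for Ppfibp1, from 0.0143 to 0.375 for Mapt, from 0.0131 to 0.478 for Hcls1 and, over 11 fits, from 0.0222 to 0.429 for Ppfibp2. The Cttn value of that replicate, 91.8 CPM, was the lowest of the table.

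Genes that work with these proteins were taken from lists by role, written from general knowledge with earlier results of these data known. The picked genes stay in the counts and medians of their lists, which are therefore a description. With miR-125b 12.1% of all tested genes were called higher and 12.2% lower, the shares beside which each count of that comparison stands. Of the liprin family, 5 of 7 genes were tested in the knockdown table. With miR-125b no member apart from the picked Ppfibp1 was called, and Ppfia1, the liprin-α1 gene, stood at 155 CPM in sh-ctrl and 127 with miR-125b (-0.28 ± 0.18, edgeR adjusted p = 0.275). With shArid3a edgeR again called no other member. Ppfia1 stood there at 92.4 CPM (-0.74 ± 0.21, edgeR adjusted p = 0.101) and was called by DESeq2, and Ppfia3 and Ppfia4 were under 1 CPM in both groups.

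Among 11 tested partners that anchor microtubules at the cortex with liprins, 3 fell with miR-125b and none rose, where 12.2% of all tested genes fell. Other listed members were near or at the floor. Kif21a and Phldb2 had 0 counts in sh-ctrl, and Kank1 and Kank2 averaged 0.202 and 0.112 CPM there. Kif21b, a kinesin that limits microtubule growth, fell from 117 ± 26.8 to 43.1 ± 5.0 CPM (-1.44, edgeR adjusted p = 0.0104). Phldb1, which encodes LL5α, fell from 21.4 ± 5.72 to 9.13 ± 0.914 (-1.23, adjusted p = 0.0199). Erc1, which encodes ELKS, fell from 6.90 ± 0.937 to 2.99 ± 0.608 (-1.20, adjusted p = 0.0196). The median of the list was -0.20 beside -0.03 over all genes. Without sh-ctrl replicate 3, or without miR-125b replicate 1, Kif21b was the one still called, and Erc1 was not called without miR-125b replicate 3 either. With shArid3a edgeR called none, 10 of 11 values were below 0, and the median was -0.78 beside -0.02 over all genes. Erc1 stood there at 2.99 ± 0.889 CPM (-1.20, adjusted p = 0.102) and Kif21b at 59.9 ± 34.3 (-0.96, adjusted p = 0.121), both below every control library and both called by DESeq2.

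Of 14 tested microtubule-associated proteins, none apart from the picked Mapt was called by edgeR in either comparison against sh-ctrl, with list medians of -0.12 in each. The other tested members with broad roles at microtubules included Mapre1, the EB1 gene, at 253 CPM in sh-ctrl and 270 with miR-125b (0.10 ± 0.11, edgeR adjusted p = 0.542). Of 13 tested genes for enzymes that act on tau, 2 rose and 1 fell with miR-125b, beside a list median of 0.09. That share is close to the 24.4% of all tested genes that were called, so the count says nothing particular of these enzymes. Fyn, a Src-family kinase, rose from 62.0 ± 6.10 to 91.6 ± 8.79 CPM (0.56, edgeR adjusted p = 0.0153). Mark2, a kinase that releases tau from microtubules, fell from 113 ± 12.8 to 75.9 ± 6.59 (-0.57, adjusted p = 0.0190). Fyn was also higher with miR-125b than with shArid3a (1.01, edgeR adjusted p = 0.0125), a call lost without miR-125b replicate 2 and without either shArid3a library. The calls of Fyn and Mark2 against sh-ctrl were lost without sh-ctrl replicate 3. That of Fyn was also lost with library totals, and that of Mark2 without miR-125b replicate 1. Over 13 alternative fits each was called in 11.

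The Arp2/3 complex and its activators, 28 tested genes that include Cttn and Hcls1, split with miR-125b: 6 rose and 3 fell, the picked Cttn among the latter, with a median of 0.01. Over all tested genes 12.1% rose and 12.2% fell. Besides Hcls1 the risers were led by 2 subunit genes. Arpc1b, an Arp2/3 subunit prominent in blood cells, went from 746 ± 113 to 1131 ± 40.9 CPM (0.60, edgeR adjusted p = 0.0201). Brk1, a subunit of the WAVE complex, went from 150 ± 22.4 to 231 ± 21.3 (0.62, adjusted p = 0.0233). Besides Cttn the fallers were Wipf2, which binds WASP proteins (-0.66, adjusted p = 0.0212), and Was, the WASP gene of blood cells (195 ± 29.6 to 144 ± 5.78 CPM, -0.44, adjusted p = 0.0442). The split depended on scaling and on single libraries of both groups. With library totals 3 rose and 5 fell, with a median of -0.18, where the median of all genes was -0.22. Without sh-ctrl replicate 3 only Was passed apart from the picked Cttn, which carries no test. Over the 13 alternative fits Arpc1b and Wipf2 were called in 11, Brk1 in 10 and Was in 8. Of the other risers, Arpc3 was called in 8, Arpc5l in 6 and Arpc2 in 5. Arpc5l lost its call when any library of the 2 groups was left out. Was lost its call when any library of the 2 groups other than sh-ctrl replicate 3 was left out. In the fit with the replicate number as a block, Arpc2, one of the 6 risers, was not called (0.44, edgeR adjusted p = 0.0633, with 0.0162 to 0.127 over all alternatives). With shArid3a edgeR called none, and 19 of 28 values were above 0, with a median of 0.17. The picked Cttn carries no test there.

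Proteins that bind or phosphorylate cortactin and HS1 followed, with 11 tested genes. With miR-125b 4 fell and 1 rose, beside a median of -0.23 and the 12.2% and 12.1% of all tested genes. Src, the kinase for which cortactin was described as a substrate, fell from 104 ± 20.6 to 44.4 ± 7.42 CPM (-1.23, edgeR adjusted p = 0.00564). Shank3 (-0.71, adjusted p = 0.0405), a scaffold that binds cortactin, and Syk (-0.54, adjusted p = 0.0432), a kinase of HS1, fell less. The riser was Hax1, which encodes an HS1-associated protein (69.8 ± 6.26 to 104 ± 9.65 CPM, 0.57, adjusted p = 0.0164). Src, called in all 13 alternative fits, was the one still called without sh-ctrl replicate 3 or without miR-125b replicate 1. With shArid3a edgeR called none, 9 of 11 values were below 0 and the median was -0.58. DESeq2 called Mylk, Shank3 and Syk lower and Hax1 higher there. Hax1 stood at 110 ± 15.3 CPM there, above every control library (0.65, edgeR adjusted p = 0.0989).

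Around Itih5, 7 genes of the inter-alpha-trypsin inhibitor family and of hyaluronan biology were tested of 17 listed. Has3, a hyaluronan synthase, had 38 counts over the 3 sh-ctrl libraries, 7 over the 2 shArid3a libraries and 5 over the 3 miR-125b libraries. It passed the low-count filter through its control level and was called lower with miR-125b in 2 of 9 alternative fits, not with the replicate block (edgeR adjusted p = 0.0650), so no fall is read from it. Hyal2, a hyaluronidase, rose from 12.0 ± 2.39 to 18.8 ± 2.10 CPM (0.65, edgeR adjusted p = 0.0433), a call that held in 7 of 13 alternative fits. The Hyal2 call was lost with library totals and when sh-ctrl replicate 1 or 3 or any miR-125b library was left out. The list median was -0.46. In the libraries labelled Arid3a edgeR called no gene of these lists, while DESeq2 called members of 6 of the 7, Ppfibp1 and Mapt among them.

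**Figure D4:**
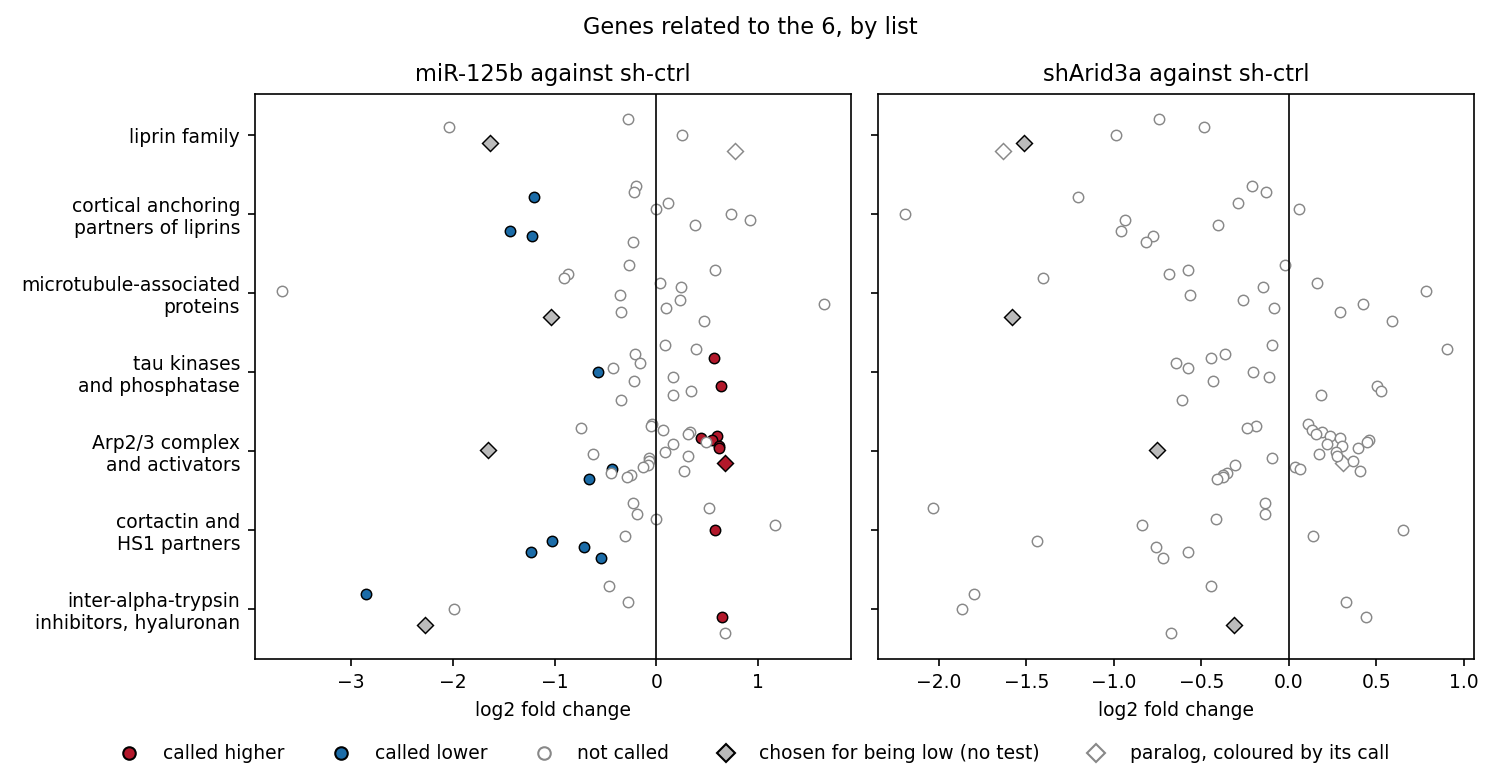
Log2 fold change (x axes, linear, different ranges) of every tested gene in 7 lists of related genes (rows) for miR-125b against sh-ctrl and shArid3a against sh-ctrl; red and blue circles were called higher and lower by edgeR at an adjusted p under 0.05, open circles were not called, and diamonds are the 6 genes. Calls outside the picked genes appear in the miR-125b panel, where Arp2/3 genes lie on both sides of 0, and none appears in the shArid3a panel.

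Marker sums of blood cell types in the treated groups mostly overlapped sh-ctrl, and only the erythroid sum with miR-125b lay apart from it. Erythroid markers summed to 548 to 810 CPM in sh-ctrl, 536 to 628 in shArid3a and 350 to 376 with miR-125b, with Slc4a1 at 0 in all 3 groups. Myeloid markers summed to 55.25 to 101.6 CPM in sh-ctrl, 35.9 to 66.3 in shArid3a and 89.4 to 166 with miR-125b. Mast cell and basophil markers summed to 6.33 to 64.6, 9.41 to 58.1 and 22.98 to 293 CPM in that order. Mcpt8 alone ran from 0.872 to 43.7 CPM between the miR-125b libraries. Of the tested markers, 3 of 6 myeloid genes, 2 of 7 mast cell and basophil genes and the hepatoblast gene Afp were called higher with miR-125b. Of the erythroid genes 2 of 8 were called lower (edgeR adjusted p under 0.05), beside 12.1% of all tested genes called higher and 12.2% lower. Among those called higher, Elane, Mcpt8 and Prss34 had only 18, 9 and 18 counts over the 3 sh-ctrl libraries. These genes met the low-count filter mainly through their miR-125b levels. Mpo, a granule enzyme of myeloid precursors, stood at 0.198 ± 0.318 CPM in sh-ctrl and 41.7 ± 18.5 with miR-125b. It had 21 counts over the 3 sh-ctrl libraries, 12 over the 2 shArid3a libraries and 4360 over the 3 miR-125b libraries. Mpo thus passed the low-count filter through its miR-125b level. The values of Mpo, Elane, Mcpt8 and Prss34 are therefore a description, and no test is read from them. The myeloid count and the mast cell and basophil count include these genes, so nothing is read from either count beside the 12.1%. Megakaryocyte markers summed to 2815 to 4439, 3216 to 3411 and 2816 to 3629 CPM in the same order of groups, and with miR-125b 4 of the 9 were called lower and 1 higher, where 12.2% and 12.1% of all tested genes were. The part of these differences in the changes of the 6 genes and their partners was not tested.

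Over the 8 libraries of the knockdown table, the picked genes were described by the genes with the closest pattern of log2 CPM, out of 8394 candidates. Libraries of a group share their treatment, so these correlations mostly describe the order of 3 groups, and they carry no p. Ppfibp1 was closest to Xpo4 (r = 0.975) and Prkd3 (0.975). Xpo4, which encodes an exportin, averaged 24.6 CPM in sh-ctrl, 12.9 with shArid3a and 11.3 with miR-125b, so it shared the drop of similar size in both groups. Mapt was closest to Il18rap (0.994), Slc9a8 (0.986) and Rev3l (0.972). Il18rap, a cytokine receptor subunit, averaged 153, 77.4 and 97.7 CPM in that order, with shArid3a lowest. Cttn was closest to Rabl6 (0.994), Csnk1e (0.986) and Arid3b (0.986). Arid3b, a relative of Arid3a, averaged 26.0, 16.5 and 6.84 CPM, 3 descending steps. Itih5 was closest to Tmem123 (0.994), Cacfd1 (0.985) and Ap5m1 (0.983). Tmem123, a membrane protein gene, averaged 303, 287 and 136 CPM, lowest with miR-125b.

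Among the 6 genes themselves, over the same 8 libraries, Cttn went most closely with Itih5 (r = 0.93) and Ppfibp1 (0.90), and against Hcls1 (-0.92). Mapt went with Ppfibp1 (0.87) and less with Itih5 (0.36). Ppfibp2, with at most 24 counts in any of these libraries, showed no pattern that its counts could carry. Overlapping annotated genes lie at Ppfibp1, Ppfibp2, Mapt and Cttn. Those with a row in the tables had at most 8 counts in any Gata1s library, Gm44772 at Ppfibp2 was not analysed here, and whether counting used strand is not given in the sources used here.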

How the data were processed

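RNA sequencing counts of 17 mouse FLC libraries were used. Illumina libraries were made from RNA of a Zymo Quick-RNA kit, per the labels. Per the submitters' processing notes, the authors used fastp, HISAT2 2.0.5 and featureCounts with mm10, and the deposited tables hold raw counts per gene with no normalization. The authors' gene length column (bases), taken from the WT count table, gave levels per kilobase in all groups. Tables were joined by Ensembl identifier, and groups came from the labels. Gene positions and 3′ UTRs were taken from GENCODE M21 (GRCm38).

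Each table was fitted with edgeR 4.0.16 in R 4.3.3 (TMM, filterByExpr by group, 1 term per group, glmQLFit and glmQLFTest), and genes with a Benjamini-Hochberg adjusted p under 0.05 over all genes tested were called, of 13495 tested in the LUC and Arid3a table and 14004 in the knockdown table. The script was tested on simulated data. The 3 knockdown-table groups were fitted together, so the 2 shArid3a libraries share the spread of that table. Standard errors were derived from the F statistics. Counts are reads without molecular identifiers, so depth bounds counting error only. Alternatives were DESeq2 1.42.0, library totals, other filters, a replicate block, no ribosomal RNA-like genes, only the groups compared, and each library left out.

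The 6 genes and the 14 lists were chosen with earlier results of these data known. Named genes are the 6 and Arid3a, the called genes of each list (up to 3 per direction by adjusted p), and the 3 genes closest to each picked gene by Pearson r of log2 CPM (prior count 2) among genes averaging at least 3 in log2 CPM. Ppfia1, Ppfia3, Ppfia4, Kif21a, Phldb2, Kank1, Kank2, Mapre1, Arpc2, Arpc3, Arpc5l and Tubb3 were added after their values were seen. So were the values of list genes in comparisons that did not call them. Deviations of sh-ctrl and miR-125b libraries with the same number correlated across genes (0.427, 0.151 and 0.294). Those with different numbers ran from -0.364 to 0.205, the highest for sh-ctrl replicate 3 with miR-125b replicate 2. Pairing of these groups was thus only partly shown. Adjusted p are from the fit without pairing unless the replicate block is named. A few items that these rules would name are not reported here. Number 2 of the shArid3a libraries was not used here.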

Additional observations from a re-analysis of the deposited data

How the results depend on the processing

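The 28 fold changes of the 6 genes and Arid3a kept their sign in 330 of 332 alternative fits. The exceptions were Arid3a in the libraries labelled Arid3a without replicate 3 (-0.0188, with 0.21 without replicate 1 as the other end of its range) and Ppfibp1 between miR-125b and shArid3a (up to 0.01). Counts of genes called over the whole table moved far more, and the cause was not tested. For the Arid3a label against LUC, 0 genes were called, 1186 with DESeq2, 71 with no filter on low counts and 0 to 3198 with 1 library left out, the last without Arid3a replicate 1. For shArid3a against sh-ctrl, 12 were called, 1335 with DESeq2, 20 with library totals, 1237 with no filter, 19 with at least 10 counts in every library, 0 without ribosomal RNA-like genes (3569 at an unadjusted edgeR p under 0.05) and 2 to 11 with 1 library left out. For miR-125b against sh-ctrl, 3414 were called and 734 to 2872 with 1 library left out, the fewest without sh-ctrl replicate 3. With library totals that comparison had 890 higher and 2452 lower against 1700 and 1714. For miR-125b against shArid3a, 189 were called, 714 with DESeq2, 715 with no filter and 12 to 329 with 1 library left out.

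With the replicate block the 4 comparisons had 0, 15, 3687 and 255 genes called. In miR-125b against sh-ctrl the paralog Hcls1 stayed called and Ppfibp2 stayed uncalled. Same-numbered libraries correlated at 0.431 and 0.161 for sh-ctrl and shArid3a, and at 0.158, 0.365 and 0.0084 for the Arid3a label and LUC, so pairing was not taken as shown for either, with only 2 pairs in the former. TMM over all 17 libraries moved the log2 ratio of sh-ctrl to WT to 1.23 for Ppfibp1 (from 0.93), to 1.55 for Cttn (from 1.25) and to 0.12 for Hcls1 (from -0.18), which changes the sign for Hcls1.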
